A study of Rattus norvegicus with 93 samples.

Results

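Messenger RNA of the glucocorticoid receptor, the mineralocorticoid receptor and a set of genes that glucocorticoids switch on was followed in the rostromedial tegmental nucleus (RMTg) of outbred laboratory rats. The set has 8 genes of the 38354 in the deposited table: Nr3c1, Nr3c2, Fkbp5, Tsc22d3, Sgk1, Hsd11b1, Pdk4 and Zbtb16. They are picked out by gene name and function and not by a threshold on a measured value, but the choice was made with earlier results of these data known. Libraries were taken where Nif3l1 held under 20% and LOC120093067 plus Zfp532 together held under 10% of the counts, which kept 49 of 92 libraries. The kept library nearest to the second limit had 5.50% in that pair and the nearest left out had 19.8%. All 8 genes passed the filter on low values that 18749 genes passed.

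The RMTg is a mainly inhibitory brainstem nucleus that projects to midbrain dopamine neurons, and the series was collected to study avoidance learning in addiction. Its labels put every animal in 1 group of polyadenylated RNA libraries, 1 library per animal. They state no drug, learning outcome, stress, sex, age or time of death, so no treated and untreated rats could be compared. What could be compared is how the 8 genes varied from rat to rat, and p-values measure only the spread between these libraries.

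Corticosterone, the main glucocorticoid of rats, reaches the brain from the blood and binds both receptors inside cells. The mineralocorticoid receptor (Nr3c2) binds it more tightly and is occupied at resting hormone levels, whereas the glucocorticoid receptor (Nr3c1) fills during stress and at the daily peak. Bound receptors enter the nucleus and change transcription of target genes, among them Fkbp5, whose protein holds the receptor in a state of low affinity and so closes a feedback loop.

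Total estimated counts in the 49 libraries ranged from 9.55 M to 50.2 M with a median of 19.2 M (M, 1000000 counts), and 23690 to 28273 genes were above 0. No pair of libraries was identical. All 11 markers of inhibitory RMTg neurons on the list used passed the filter, with a summed level between 867 and 1309 CPM (counts per 1000000 counts of the library). Gad1, which makes GABA, had a median of 453 CPM and the transcription factor Gata3 one of 56.8 CPM. Markers of neighbouring cell groups were present as well: Th, the dopamine enzyme, ranged from 46.5 to 1067 CPM and Tph2, the serotonin enzyme, from 92.1 to 391 CPM. Of 7 choroid plexus and ependymal markers with a row, 3 passed. The identifiers in the labels fall into runs of numbers, called series B to F here, with 7, 16, 12, 7 and 7 kept libraries. The labels do not say what a run stands for, so a series is only a possible batch.

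Both receptors were detected in every library. Nr3c1 (chromosome 18, position 31644508 in the table) lay between 36.8 and 86.7 CPM with a median of 57.8 CPM, a 2.36-fold range. Its SD of 0.29 on the log2(CPM + 1) scale was divided by the median SD of genes of like mean level. That ratio stood at the 82.8th percentile of all genes past the filter, and the SD percentiles below are of the same ratio. Nr3c2 (chromosome 19, position 47964089) lay between 8.54 and 16.2 CPM with a median of 11.8 CPM. It was the steadiest of the 8 genes, with an SD of 0.19 that stood at the 3.28th percentile. The libraries formed no separate high and low sets for either receptor.

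Hsd11b1 (chromosome 13, position 107327462) encodes the enzyme that regenerates active corticosterone inside cells. Its level ran from 8.11 to 38.2 CPM with a median of 21.6 CPM. One library of series C lay alone at the bottom, with 12.4 CPM in the next. Hsd11b2, which inactivates the hormone, did not pass the filter and had a median of 0.27 CPM.

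The target genes differed more from rat to rat than most genes of like mean level, with Sgk1 at the head. Sgk1 (chromosome 1, position 24916886), a kinase induced by both corticosteroid receptors, ran from 63.8 to 913 CPM with a median of 432 CPM, a 14.3-fold range. Its SD of 0.81 stood at the 99.6th percentile. Pdk4 (chromosome 4, position 34568329), a kinase that turns glucose oxidation down in favour of fat, ran from 0.37 to 24.3 CPM with a median of 7.92 CPM. Its SD of 0.77 stood at the 98.6th percentile. The lowest library was the same for both genes, a library of series D in which Pdk4 rested on 5 estimated counts, and the next lowest had 166 CPM of Sgk1 and 2.16 CPM of Pdk4.

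Zbtb16 (chromosome 8, position 58073507), a zinc-finger transcription factor strongly induced by glucocorticoids in several tissues, ran from 21.9 to 109.7 CPM with a median of 45.05 CPM. Its SD of 0.59 also stood at the 98.6th percentile. Fkbp5 (chromosome 20, position 6577227) ran from 13.4 to 46.5 CPM with a median of 22.7 CPM, and its SD of 0.47 stood at the 96.3th percentile. Tsc22d3 (chromosome X, position 109066389), which encodes the glucocorticoid-induced leucine zipper, was steadier than the other targets. It ran from 119 to 320 CPM with a median of 225 CPM and an SD of 0.31, at the 79.5th percentile. None of the 8 genes had a gap of 1 log2 unit in its sorted values with at least 5 libraries on each side.

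**Figure D1:**
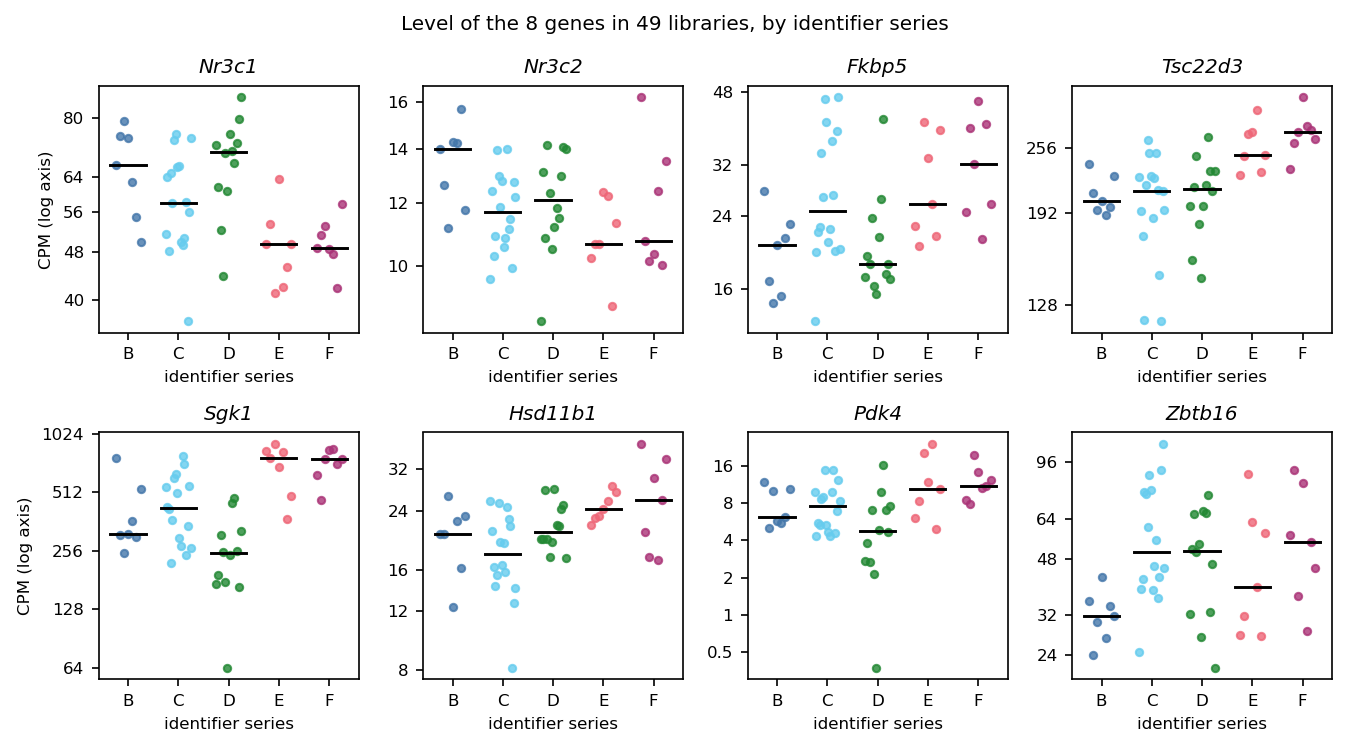
Level of each of the 8 genes in the 49 libraries, in CPM on a log axis, with libraries grouped by identifier series B to F on the horizontal axis. Points are libraries and black bars are series medians. Sgk1 medians of series E and F (767 and 757 CPM) lie above those of B, C and D (311, 427 and 249 CPM), while Nr3c1 medians of E and F (49.5 and 48.7 CPM) lie below those of B, C and D.

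Sgk1, Tsc22d3 and Nr3c1 differed between the identifier series, and the other 5 genes did not pass the test. The test was limma's moderated F test over all genes with Benjamini-Hochberg adjustment, which called 320 of 18749 genes (1.71%). Without adjustment 7 of the 8 and 2775 of the 18749 had a p under 0.05. Sgk1 had a median of 311 CPM in series B, 427 CPM in C, 249 CPM in D, 767 CPM in E and 757 CPM in F (limma adjusted p = 5.16e-05). Ranges overlapped: the lowest library of series E had 373 CPM, and the highest of series C had 794 CPM.

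Tsc22d3 medians were 203, 212 and 213 CPM in series B, C and D against 248 CPM in E and 274 CPM in F (limma adjusted p = 0.024). Nr3c1 ran the other way, with medians of 66.9, 57.9 and 70.3 CPM in series B, C and D against 49.5 CPM in E and 48.7 CPM in F (limma adjusted p = 0.029). Series of high Sgk1 thus had low receptor message. The adjusted p was 0.080 for Pdk4, 0.10 for Fkbp5, 0.13 for Hsd11b1, 0.27 for Zbtb16 and 0.54 for Nr3c2.

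Immediate early genes, which neurons and glia switch on within minutes of stimulation, split along the same series. Fos ranged from 3.31 to 20.4 CPM over the libraries of series B, C and D, from 103 to 224 CPM in E and from 37.5 to 227 CPM in F, with no overlap. Without series E and F together, limma called 0 of the 8 genes and 0 of all genes between the other 3 series, although 4 of the 8 and 654 of all genes had an unadjusted p under 0.05. The adjusted p of Sgk1 was then 0.95. With Fos and Junb as covariates limma also called 0 of the 8, with 4 of the 8 and 723 of all genes at an unadjusted p under 0.05. Identifier series and immediate early gene level cannot be told apart here. The calls of Nr3c1 and Tsc22d3 also depended on single libraries: that of Nr3c1 was lost without any 1 of 8 libraries (78, 79, 82, 84, 85, 90, 91 or 92) and that of Tsc22d3 without any 1 of 3 (84, 90 or 91). Both were lost with glial and endothelial cell type scores as covariates (limma adjusted p = 0.066 and 0.44) and with Xist and Ddx3y as covariates (0.62 and 0.15). Fkbp5 passed without library 42, and Fkbp5 and Pdk4 passed without library 75.

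Across all 49 libraries several of the target genes rose and fell together, above all Sgk1 with Pdk4 and Fkbp5 with Zbtb16. Of the 28 pairs among the 8 genes, 8 passed at a limma adjusted p under 0.05 with either gene as predictor, 7 of them positive and 1 negative. Correlations are Pearson's r and Spearman's rho of log2(CPM + 1), each with a two-sided permutation p from 100000 permutations, of which 1e-05 is the smallest possible. The trimmed r leaves out the pair of libraries most extreme for the gene named first. The share of all genes called in the same fits differed widely by predictor. With Sgk1, 12.1% of genes rose and 6.41% fell. With Pdk4 it was 18.1% and 9.46%, with Tsc22d3 22.5% and 12.6%, and with Hsd11b1 7.04% and 3.52%. With Fkbp5 only 0.261% rose and 0.0373% fell, and with Zbtb16 0.096% and 0.0267%. A partner of Fkbp5 was therefore 1 of 56 genes called and a partner of Zbtb16 1 of 23, while a partner of Pdk4 was 1 of 5159.

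**Figure D2:**
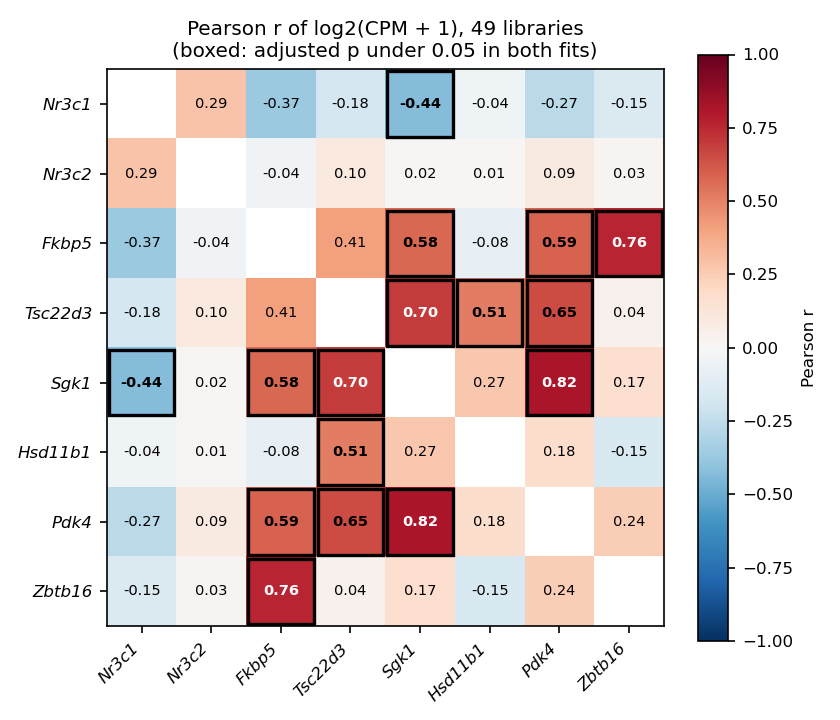
Pearson r of log2(CPM + 1) over the 49 libraries for each pair of the 8 genes, written in each cell and coloured from -1 (blue) to 1 (red). Black boxes mark the 8 pairs with an adjusted p under 0.05 in both fits; Sgk1 with Pdk4 (0.82) and Fkbp5 with Zbtb16 (0.76) have the highest r, and no pair of Nr3c2 is boxed.

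Sgk1 and Pdk4 were the closest pair (r = 0.82, permutation p = 1e-05; rho = 0.77, permutation p = 1e-05; limma adjusted p = 1.8e-10 and 2.7e-10 with Sgk1 and Pdk4 as predictor). Inside the individual series, in the order B to F, r came to 0.62, 0.71, 0.89, 0.58 and 0.65. The trimmed r was 0.76, and r was also 0.76 without the single low library of series D. Removing series E and F together left it at 0.82 (limma adjusted p = 2.6e-06). High Sgk1 and high Pdk4 were therefore found in the same rats within each series and not only between series.

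Fkbp5 and Zbtb16 formed the second close pair (r = 0.76, permutation p = 1e-05; rho = 0.71, permutation p = 1e-05; limma adjusted p = 1.3e-07 and 7.8e-07). Inside the series it came to 0.59, 0.87, 0.66, 0.95 and 0.75, and the trimmed r was 0.72. With series as covariate it was 0.79 and with Fos and Junb as covariates 0.81. Neither gene passed the test between series, and the pair moved within each of them. In contrast, Zbtb16 followed neither Sgk1 (r = 0.17, permutation p = 0.25; rho = 0.11, permutation p = 0.43; limma adjusted p = 0.39 and 0.61) nor Tsc22d3 (r = 0.0448, permutation p = 0.76; rho = 0.16, permutation p = 0.27; limma adjusted p = 0.83 and 0.92).

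**Figure D3:**
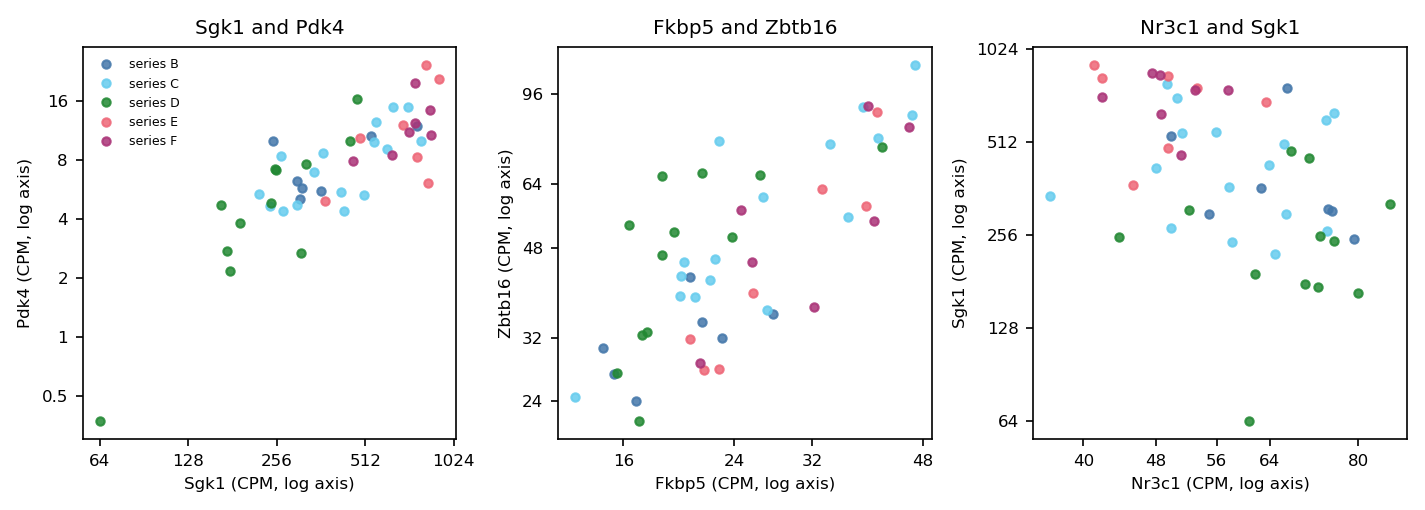
Levels of 3 pairs of genes in the 49 libraries, in CPM on log axes, each point 1 library coloured by identifier series. Sgk1 and Pdk4 (r = 0.82) and Fkbp5 and Zbtb16 (r = 0.76) rise together within every series, whereas Nr3c1 and Sgk1 (r = -0.44) are set apart mainly by series E and F.

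Fkbp5 also rose with Sgk1 (r = 0.58, permutation p = 1e-05; rho = 0.62, permutation p = 1e-05; limma adjusted p = 0.0031 and 0.00060) and with Pdk4 (r = 0.59, permutation p = 2e-05; rho = 0.65, permutation p = 1e-05; limma adjusted p = 0.0021 and 0.00015). Within series, r of Fkbp5 and Sgk1 was 0.80, 0.42, 0.68, 0.11 and -0.22 from B to F. That of Fkbp5 and Pdk4 was 0.49, 0.44, 0.76, 0.56 and 0.17. With series as covariate neither pair passed (limma adjusted p = 0.24 for Sgk1 and 0.082 for Pdk4). The trimmed r was 0.57 with Sgk1 and 0.56 with Pdk4.

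Tsc22d3 rose with Sgk1 (r = 0.70, permutation p = 1e-05; rho = 0.76, permutation p = 1e-05; limma adjusted p = 2.0e-07 and 1.0e-05) and with Pdk4 (r = 0.65, permutation p = 1e-05; rho = 0.73, permutation p = 1e-05; limma adjusted p = 3.2e-06 and 3.8e-05). Both correlations were positive in all 5 series, from 0.47 to 0.88 for Sgk1 and from 0.47 to 0.94 for Pdk4. The trimmed r was 0.77 and 0.75. Without series E and F the pair with Pdk4 still passed (limma adjusted p = 0.027) and that with Sgk1 did not (0.068).

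The regenerating enzyme Hsd11b1 rose with Tsc22d3 alone (r = 0.51, permutation p = 0.00018; rho = 0.44, permutation p = 0.0018; limma adjusted p = 0.00080 and 0.0057). Library 63 of series C, which has the lowest median correlation with the other libraries (0.951), ended this call when left out alone (r = 0.39). The trimmed r was 0.33, the call was also lost without the 5 libraries of lowest correlation (limma adjusted p = 0.25), and inside the series r was 0.0777, 0.59, 0.21, 0.0234 and -0.28. The only negative pair was Nr3c1 with Sgk1 (r = -0.44, permutation p = 0.0018; rho = -0.50, permutation p = 0.00036; limma adjusted p = 0.0087 and 0.015). Its trimmed r was -0.48. Inside the series it was -0.41, -0.0565, 0.0733, -0.0774 and -0.0869, and with series as covariate it was -0.0599 (limma adjusted p = 0.84). Series E and F lay low in Nr3c1 and high in Sgk1, and within a series r was near 0 in 4 of 5.

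None of the targets rose with either receptor as predictor. Nr3c1 as predictor was followed by 12.6% of all genes upward and 6.53% downward, and among the other 7 of the set by 0 upward and by Fkbp5 and Sgk1 downward. The fall of Fkbp5 (r = -0.37, permutation p = 0.0093; rho = -0.39, permutation p = 0.0059; limma adjusted p = 0.035; trimmed r = -0.30) did not pass with Fkbp5 as predictor (0.26), and inside the series r lay between -0.46 and -0.0464. With Nr3c2 as predictor limma called 0.0% of genes upward and 0.0% downward, none of the other 7 among them, while 701 of all genes and 1 of the 7 had an unadjusted p under 0.05. Its largest r among the 8 was 0.29, with Nr3c1 (permutation p = 0.045; rho = 0.34, permutation p = 0.018; limma adjusted p = 0.18 and 0.97; trimmed r = 0.21).

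A joint fit with Fkbp5 and Sgk1 as predictors together asked which of them each gene followed. Zbtb16 changed by 0.59 log2 units per SD of Fkbp5 and by -0.24 per SD of Sgk1. The difference of 0.83 ± 0.10 (SE) was past the threshold (limma adjusted p = 1.3e-06), and only 0.0107% of all genes followed Fkbp5 above Sgk1 in that sense. In the opposite direction, 0.0427% of all genes passed, 3 of them on the list of other glucocorticoid-responsive genes. These were Nfkbia, the inhibitor of NF-kappaB (-0.50 ± 0.08, adjusted p = 0.00018), Errfi1, a brake on EGF receptor signalling (-0.34 ± 0.07, adjusted p = 0.011), and Dusp1, a phosphatase of MAP kinases (-0.66 ± 0.14, adjusted p = 0.046), each by the same limma fit. Olig2, on the list of oligodendrocyte precursor markers, also followed Sgk1 above Fkbp5 (-0.35 ± 0.06, limma adjusted p = 0.0021). For Pdk4 (-0.42 ± 0.13) and Tsc22d3 (-0.21 ± 0.07) the difference did not pass (limma adjusted p = 0.11 and 0.12).

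Windows upstream of gene starts were searched for the letters of the receptor's binding site. RefSeq (GRCr8) gives such windows for 5 of the 8 genes, 10 windows in all, and for 17 of the 18 other responsive genes, 22 windows. The palindrome GNACA, then any 3 bases, then TGTNC was looked for on both strands of the 250 bases before each start. It was in 0 of the 10 windows, against 0.373% of all 33469 windows. The receptor half-site TGTTCT, a stricter string than the palindrome's arm TGTNC, was in 0 of the 10 on either strand, against 17.5% of all windows. A window can thus hold the palindrome and not this half-site. The letters TATAAA on the sense strand were in 3 of the 10, in Sgk1 and Tsc22d3, against 8.06% of all. Of the 22 windows of the other responsive genes, 1 held the palindrome (Map3k6), 3 the receptor half-site (Gjb6, Plin4 and Sult1a1) and 3 TATAAA (Errfi1, Mt1 and Mt2A). TGACG, the half-site of the cyclic AMP response element, was also searched on both strands. It was in 1 of the 10 (Tsc22d3) and 7 of the 22 (Bcl6, Cdkn1a, Dusp1, Errfi1, Gjb6, Klf9 and Mt1), against 18.2% of all. Receptor sites far from the start are common, and these windows say nothing of them. The starts used are not always the gene ends given above as positions. The Fkbp5 window ends at 6543805, inside the gene, whose position is 6577227. All windows of Sgk1 and Nr3c1 lie inside their genes too, so the outermost start of these 3 genes was not searched. The stretches below show where the capitals, TATAAA, lie in the windows of Sgk1 and Tsc22d3 and of Errfi1, the gene with the highest r with Sgk1 below, and the last shows the only palindrome found in these genes, in capitals, in the stress kinase gene Map3k6. All are GRCr8, 5′ to 3′ on the gene's strand.
Sgk1, chr1:24804847-24804876, minus strand: aggctcagggctTATAAAgtcggtcgcaga
Sgk1, chr1:24807269-24807298, minus strand: attccctttagaTATAAAgcgggactcgga
Tsc22d3, chrX:109010061-109010090, minus strand: tggctcctcctaTATAAAgaagcaggagcc
Errfi1, chr5:166606794-166606823, plus strand: gtcggctcgcctTATAAAtacgggcgtcgg
Map3k6, chr5:150724056-150724084, plus strand: gaatagggGCACAGGCTGTTCcggaagtg

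For Fkbp5 and Pdk4, whose windows lack all of these letters, the whole 250 bases before the start used are given. They differ in base composition: 76% of the Fkbp5 stretch and 59.2% of the Pdk4 stretch is G or C. Nothing is in capitals because no motif searched is there.
Fkbp5, chr20:6543556-6543805, minus strand: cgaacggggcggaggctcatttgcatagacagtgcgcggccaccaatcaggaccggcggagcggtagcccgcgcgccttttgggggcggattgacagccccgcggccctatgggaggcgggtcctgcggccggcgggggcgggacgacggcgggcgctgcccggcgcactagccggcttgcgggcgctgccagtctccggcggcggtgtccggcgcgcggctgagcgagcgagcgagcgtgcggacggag
Pdk4, chr4:34568330-34568579, minus strand: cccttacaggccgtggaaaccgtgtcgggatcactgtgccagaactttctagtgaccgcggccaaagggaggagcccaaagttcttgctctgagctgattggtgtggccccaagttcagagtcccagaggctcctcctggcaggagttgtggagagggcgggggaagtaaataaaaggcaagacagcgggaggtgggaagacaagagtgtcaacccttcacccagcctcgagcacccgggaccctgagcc

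Other genes known to respond to glucocorticoids moved with Sgk1 most widely. Of 18 on the list used, 17 passed the filter and Lcn2 did not. All 17 rose with Sgk1, against 12.1% of all genes, with a median r of 0.60 where all genes had 0.0319. Errfi1 rose by 0.39 ± 0.03 log2 units per SD of Sgk1 (SE; r = 0.89, limma adjusted p = 4.4e-14). Nfkbia also rose by 0.39 ± 0.04 (r = 0.84, limma adjusted p = 1.6e-11) and Dusp1 by 0.65 ± 0.07 (r = 0.81, limma adjusted p = 4.5e-10). The clock gene Per1, itself a receptor target, rose by 0.27 ± 0.05 (limma adjusted p = 0.00030), and Klf9 by 0.13 ± 0.04 (limma adjusted p = 0.017). Counts of the metallothioneins Mt1 and Mt2A, near copies of each other, may be split between them by the read assignment.

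With series as covariate 9 of the 17 rose with Sgk1 (Arrdc2, Cdkn1a, Ddit4, Dusp1, Errfi1, Gjb6, Mertk, Nfkbia and Sult1a1). Without series E and F it was 6 of 16 past the filter (Arrdc2, Dusp1, Errfi1, Gjb6, Nfkbia and Sult1a1). Without the single low library of series D it was 15. That library also bore on the background, since 3462 genes had a slope on Sgk1 with it and 1655 without it, and 5159 and 3433 on Pdk4. The share of all genes rising with Sgk1 in these refits is not given here. The 12.1% of the main fit does not apply to them.

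With the other targets fewer genes of the list rose. Pdk4 was followed by 12 of 17, against 18.1% of all genes, and Tsc22d3 by 10 of 17, against 22.5%. Fkbp5 was followed by 6 of 17, against 0.261% of all genes. These were Sult1a1, a sulfotransferase (0.42 ± 0.06, r = 0.72, limma adjusted p = 3.5e-06), the cell cycle inhibitor Cdkn1a (0.34 ± 0.05, limma adjusted p = 4.3e-05), Errfi1, Arrdc2, Klf9 and Plin4. Sult1a1 was the 1 gene of these 6 that passed with series as covariate and without series E and F. Hsd11b1 was followed by Mt1 and Gjb6, 2 of 17 against 7.04% of all genes. Zbtb16 was followed by Sult1a1, 1 of 17 against 0.096%. Nr3c2 was followed by none of them, and by 0% of all genes.

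Nr3c1 was followed by 7 of the 17 genes in the falling direction (Per1, Dusp1, Cdkn1a, Errfi1, Arrdc2, Sult1a1 and Cebpd), against 6.53% of all genes, and by none in the rising one. Errfi1 fell by 0.25 log2 units per SD of Nr3c1 (r = -0.56, limma adjusted p = 0.00036). With series as covariate, or without series E and F, 0 of them fell.

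**Figure D4:**
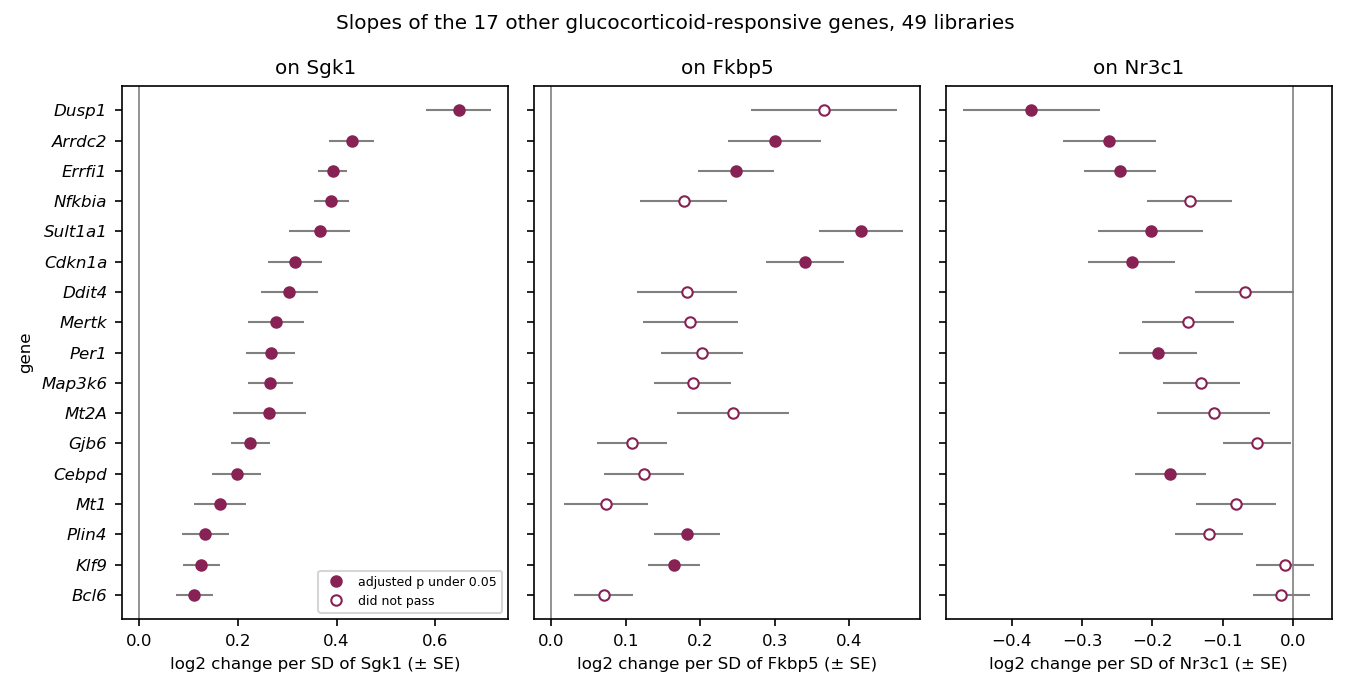
Slopes of the 17 other glucocorticoid-responsive genes on Sgk1, Fkbp5 and Nr3c1 over 49 libraries, as the log2(CPM + 1) change per SD of the predictor; bars are standard errors, filled points passed an adjusted p under 0.05 and open points did not. All 17 are filled and above 0 on Sgk1, 6 are filled on Fkbp5, and 7 are filled and below 0 on Nr3c1.

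Immediate early genes moved with the same predictors, and some responsive genes, such as Dusp1 and Per1, respond to both hormone and stimulation. All 9 past the filter rose with Sgk1 (against 12.1% of all genes), with Pdk4 (against 18.1%) and with Tsc22d3 (against 22.5%). All 9 fell with Nr3c1 (against 6.53%) and 4 rose with Hsd11b1 (against 7.04%). None passed with Fkbp5 (against 0.261% of all genes rising and 0.0373% falling), Zbtb16 (0.096% and 0.0267%) or Nr3c2 (0% and 0%). So few genes passed in those fits that none of 9 sets them apart little. The median r of the 9 was 0.34 with Fkbp5, 0.011 with Zbtb16 and -0.28 with Nr3c2, where all genes had 0.030, 0.039 and 0.021. Fos rose by 1.17 ± 0.21 log2 units per SD of Sgk1 (limma adjusted p = 0.00016) and by 0.64 ± 0.25 per SD of Fkbp5, which did not pass (0.30). With Fos and Junb as covariates, 6 of 17 responsive genes rose with Sgk1 (Arrdc2, Ddit4, Dusp1, Errfi1, Nfkbia and Sult1a1) and 3 with Fkbp5 (Cdkn1a, Errfi1 and Sult1a1). The share of all genes rising in either of these fits is not given here. Whether stimulation or hormone set the levels of Sgk1 was not tested.

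Among the 8 listed chaperones that fold the receptor, Fkbp4, Stip1, Ppid and Hspa8 rose with Sgk1, 4 of 8 against 12.1% of all genes. With Tsc22d3 5 of 8 rose, against 22.5%, and with Pdk4 5 of 8, against 18.1%. Stip1 alone fell with Nr3c1, 1 of 8 against 6.53%. Of 8 coregulators, Ncoa3, Nrip1 and Crebbp rose with Nr3c1, 3 of 8 against 12.6%.

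Clock genes were called at shares not far from those of all genes. Of 15, Per1, Cry1 and Cry2 rose with Sgk1 (against 12.1%) and Bhlhe41 fell (against 6.41%). With Pdk4 the same 4 were called in the same directions and Bmal1 rose too (against 18.1% and 9.46%). Nr1d2, Bmal1, Clock, Cry1 and Cry2 rose with Tsc22d3, 5 of 15 against 22.5%. With Nr3c1 Bhlhe41 rose (against 12.6%) and Per1 and Cry2 fell (against 6.53%), and with Hsd11b1 Nr1d2 rose (against 7.04%).

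The genes most like each of the 8 were taken by r, among those past the slope test with 1 sign in all 5 series. Nearest to Sgk1 were Errfi1 (r = 0.89), Nfkbia (0.84), Phactr3 (0.81) and Dusp1 (0.81), and opposite to it Hes5 (-0.66) and Pdap1 (-0.66). Nearest to Pdk4 were Rcan2 (0.82), Gpd1 (0.79), Errfi1 (0.79) and Sephs2 (0.77). Nearest to Fkbp5 were Phactr3 (0.78), the glycerol phosphate enzyme Gpd1 (0.76), Hif3a (0.74) and Sult1a1 (0.72). Phactr3 thus stood near both Sgk1 and Fkbp5, and Gpd1 near both Fkbp5 and Pdk4. Over the 49 libraries each of these r and rho had the smallest possible permutation p, 1e-05. The genes were picked for extreme r in the same libraries, so that p is no separate support. The lowest trimmed r among the positive correlations was 0.66, for Pdk4 with Sephs2.

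Zbtb16 had Gpatch4 (r = 0.69), Synj2 (0.63), Rpe65 (0.62) and Ppp2r3a (0.61) nearest to it and shared with Fkbp5 the gene running most strongly against it, the kinase Pak5 (-0.67, and -0.60 with Fkbp5). Tsc22d3 stood nearest to Slc30a4 (0.87), its own family member Tsc22d1 (0.85), Tmem50b (0.85) and Clns1a (0.85). Nr3c1 stood nearest to the potassium channel gene Kcnd2 (0.85), Ppp1r9a (0.82) and Aff4 (0.82) and opposite to the tubulin Tuba4a (-0.76). Hsd11b1 stood nearest to Cmbl, Tspan3, Tmem14c and Tmem128, all between 0.68 and 0.69, with trimmed r between 0.55 and 0.60. No gene met the rule for Nr3c2.

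Cell type markers moved with some of the 8 genes. In bulk tissue, fewer cells of a type and less RNA per cell cannot be told apart. Each library's marker score was the mean z-scored level of the list, and 72 relations of 9 library measures with the 8 genes were computed. The astrocyte score rose with Hsd11b1 (r = 0.53, permutation p = 0.00012; rho = 0.47, permutation p = 0.00081; r = 0.50 without the 2 farthest libraries; limma adjusted p = 0.00068; r from 0.0892 to 0.84 inside the series), against 31.3% of all genes called in either direction. It rose with Tsc22d3 too (r = 0.48, permutation p = 0.00043; rho = 0.37, permutation p = 0.0088; limma adjusted p = 0.0025), but there r was 0.34 without the 2 farthest libraries and from -0.17 to 0.86 inside the series. With Pdk4 the astrocyte score passed by r (0.36, permutation p = 0.012; limma adjusted p = 0.027) and not by rho (0.22, permutation p = 0.12), with r of 0.28 without the 2 farthest. The summed level of the 8 astrocyte markers ranged from 1120 to 2513 CPM.

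The endothelial score, called for 19.4% of all genes, rose with Tsc22d3 (r = 0.56, permutation p = 1e-05; rho = 0.49, permutation p = 0.00042; r = 0.55 without the 2 farthest libraries; limma adjusted p = 0.00079; r from -0.76 to 0.69 inside the series) and with Hsd11b1 (r = 0.41, permutation p = 0.0029; rho = 0.36, permutation p = 0.011; r = 0.36 without the 2 farthest; limma adjusted p = 0.019; r from -0.27 to 0.47 inside the series). It also passed with Pdk4 (r = 0.36, permutation p = 0.011; rho = 0.31, permutation p = 0.029; r = 0.34 without the 2 farthest; limma adjusted p = 0.042; r from -0.45 to 0.74 inside the series). The summed level of its 8 markers ranged from 177 to 337 CPM. The neuron score, called for 6.23% of all genes, rose with Fkbp5 (r = 0.47, permutation p = 0.00062; rho = 0.48, permutation p = 0.00056; r = 0.46 without the 2 farthest; limma adjusted p = 0.017; r from 0.17 to 0.70 inside the series) and fell with Nr3c1 (r = -0.41, permutation p = 0.0028; rho = -0.44, permutation p = 0.0018; r = -0.42 without the 2 farthest; limma adjusted p = 0.044; r from -0.75 to 0.61 inside the series). It rose with Tsc22d3 as well (r = 0.41, permutation p = 0.0044; rho = 0.49, permutation p = 0.00050; r = 0.42 without the 2 farthest; limma adjusted p = 0.047; r from 0.23 to 0.91 inside the series). Its 7 markers summed to between 2079 and 3167 CPM. They did not all move alike. With Nr3c1, Stmn2, Nefl and Syp fell (3 of 7 against 6.53% of all genes) and Nefm rose (1 of 7 against 12.6%). With Tsc22d3, Snap25, Syt1, Stmn2 and Nefl rose (4 of 7 against 22.5%) and Rbfox3 fell (1 of 7 against 12.6%). None passed with Fkbp5 as predictor, against 0.261% of all genes rising and 0.0373% falling. The oligodendrocyte score, called for 27.1% of all genes, passed with Pdk4 alone (r = 0.36, permutation p = 0.00995; rho = 0.30, permutation p = 0.037; limma adjusted p = 0.029), where r was 0.29 without the 2 farthest and from -0.0328 to 0.76 inside the series. The share of LOC120093067 plus Zfp532, called for 23.7% of all genes, fell with Tsc22d3 (r = -0.48, permutation p = 0.00053; rho = -0.51, permutation p = 0.00029; r = -0.42 without the 2 farthest; limma adjusted p = 0.0038; r from -0.78 to 0.0993 inside the series). The part of cell makeup and of this share in the levels was not tested beyond the covariates below. Library depth passed with none of the 8 genes.

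Blood and dopamine neuron markers moved with some of the genes too. Of the 5 red blood cell markers past the filter, 4 rose with Hsd11b1 (Hba-a1, Hba-a2, Hbb and Hbb-b1), against 7.04% of all genes, with a median r of 0.45 where the astrocyte list had 0.35. Hba-a1 and Hbb rose with Tsc22d3, 2 of 5 against 22.5%. Hba-a1 and Hba-a2 are near copies of each other, as are Hbb and Hbb-b1. These globin genes also differed between series (limma adjusted p = 0.00013 for Hba-a1 and 0.0020 for Hbb), and the summed level of the list ranged from 53.1 to 2653 CPM. Of 11 dopamine neuron markers, Th, Slc6a3, Slc18a2, Drd2 and Aldh1a1 rose with Pdk4, 5 of 11 against 18.1%. The last 4 of these rose with Sgk1, 4 of 11 against 12.1%, and 3 of 11 rose with Tsc22d3, against 22.5%. The summed level of that list ranged from 369 to 2465 CPM. The part of blood or of dopamine neurons in the levels of the 8 genes was not tested.

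The cell type scores used as covariates were those of oligodendrocytes, their precursors, astrocytes, microglia and endothelial cells. The neuron score was not among them, so no pair was adjusted for neuron content. With these covariates, Sgk1 with Pdk4 (r = 0.81) and Fkbp5 with Zbtb16 (r = 0.77) passed as before. Tsc22d3 with Hsd11b1 did not (r = 0.26, limma adjusted p = 0.57). Fkbp5 with Tsc22d3, which did not pass in both fits without covariates (r = 0.41, permutation p = 0.0033; rho = 0.56, permutation p = 5e-05; limma adjusted p = 0.20 and 0.010; trimmed r = 0.42), passed with them (r = 0.59, limma adjusted p = 0.0061). It passed with no covariate as well once library 63 was left out (r = 0.54), and without the 5 libraries of lowest correlation (r = 0.59, limma adjusted p = 0.0081).

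In the 32 libraries left out for LOC120093067 and Zfp532, medians of all 8 genes were lower, that of Zbtb16 by the least. Sgk1 had a median of 131 CPM there, Fkbp5 one of 6.85 CPM, Pdk4 one of 1.48 CPM and Hsd11b1 one of 2.88 CPM, while Zbtb16 had 43.9 CPM and Nr3c1 43.1 CPM. Sgk1 with Pdk4 (r = 0.52, limma adjusted p = 0.19) and Fkbp5 with Zbtb16 (r = 0.17, limma adjusted p = 0.55) did not pass in them. The features that dominate a library lower the CPM of all other genes, and their part in these levels was not tested. In the 11 libraries dominated by Nif3l1, medians were 2.33 CPM for Sgk1 and 0.75 CPM for Nr3c1, and those of Fkbp5, Hsd11b1, Pdk4 and Nr3c2 were 0. Over all 92 libraries together each of the 28 pairs passed, and Nr3c1 with Sgk1 turned positive (r = 0.89).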

How the data were processed

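The authors deposited 1 table of log2 values for 92 libraries; a sample marked as removed was not analysed here. Kallisto 0.48 is named per the submitters' processing notes, and the genome build is not given in the sources used here; the positions of the 8 genes equal the RefSeq GRCr8 gene ends. Judged by its values, each deposited log2 value is that of an estimated count plus 1, with no adjustment for transcript length, so levels of different genes were not compared. Undoing the log gave whole numbers within 0.01 for 49.8% of the nonzero values below 20.

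Values were turned back into counts, scaled to CPM by the library total and taken as log2(CPM + 1). Genes were tested where this reached 1 in 20% of the libraries or more. A gap over 50000 between identifiers started a new series. Fits used limma 3.58.1 in R 4.3.3 with a mean trend and Benjamini-Hochberg adjustment over all genes tested; a predictor was z-scored and left out of its own adjustment. Permutations were run in Python 3.11.15. On simulated data of 18749 genes, slopes of 0.5 and 1 SD were found for 46% and 100% of the changed genes, and series shifts of 1 and 2 SD for 14% and 92%. Named genes were the 8, the listed genes, and, for each of the 8, the 4 highest and 2 most negative r among named genes past the slope test whose sign was the same in all 5 series; 1 gene that met this rule is not reported here. The members, the lists and this rule were chosen with earlier results of these data known. Alternatives used series, depth, Xist and Ddx3y or cell type scores as covariates, another scaling, pseudocount or filter, and other sets of libraries. The cell type scores in these fits were the oligodendrocyte, oligodendrocyte precursor, astrocyte, microglia and endothelial ones, without the neuron score. The joint fit, Fos and Junb as covariates, leaving out whole series or single libraries, and the search of upstream windows were chosen after seeing the data.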

Additional observations from a re-analysis of the deposited data

How the results depend on the processing

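The number of called pairs, 8 of 28, became 4 with series as covariate, 28 over all 92 libraries, 5 with Fos and Junb as covariates, 5 without series D and 3 without series E and F. Leaving out single libraries gave 8 to 9; the 9 came without library 63, where Tsc22d3 with Hsd11b1 was lost and Nr3c1 with Tsc22d3 (r = -0.36) and Fkbp5 with Tsc22d3 (r = 0.54) were gained. The 320 genes and 3 of the 8 members that differed between series became 105 and 1 with Xist and Ddx3y as covariates, 172 and 1 with cell type scores, 116 and 1 without series E, 107 and 1 without series F, and 0 and 0 with Fos and Junb or without series E and F. Without a filter 1 member passed. Without series C 579 genes passed, and without the 5 libraries of lowest correlation 542. Single libraries moved these counts from 232 to 563 genes and from 1 to 5 members; the highest count of genes was without 1 library of series C.

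The 56 genes with a slope on Fkbp5 became 37 with Xist and Ddx3y, 87 with depth, 249 with cell type scores, 21 with series, 18019 over all 92 libraries and 11448 in the 32 libraries rich in LOC120093067 and Zfp532. They became 1558 without series C, 23 without D, 37 without E, 30 without F, 12 without E and F, and 42 to 120 without single libraries, the highest without 1 library of series C and the next highest 73. The 3578 genes with a slope on Nr3c1 became 1299 with Xist and Ddx3y, 1831 with series, 18635 over all libraries, 11572 in those 32, 2019 with Fos and Junb, 1974 without series E, 1466 without E and F, and 3081 to 3976 without single libraries.

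Of the other glucocorticoid-responsive genes, the 7 falling with Nr3c1 became 3 with Xist and Ddx3y, 4 without series D, 4 without series E, and 0 with series, with Fos and Junb, without E and F, over all libraries and in the 32 (6 to 9 without single libraries). The 6 rising with Fkbp5 became 3 with Xist and Ddx3y, 11 with cell type scores, 1 with series, 16 over all libraries, 13 in the 32, 3 with Fos and Junb, 12 without series C, 2 without D and 1 without E and F (5 to 7). The 12 rising with Pdk4 became 7 with series and 7 without E and F (12 to 14). The 17 rising with Sgk1 became 9 with series, 0 in the 32, 6 with Fos and Junb, 11 without series D and 6 without E and F (15 to 17). The 10 rising with Tsc22d3 became 6 with series, 16 over all libraries, 3 in the 32, 5 with Fos and Junb, 6 without series F and 6 without E and F (10 to 11). For Sgk1, Pdk4 and Tsc22d3 the share of all genes rising in these refits is not given here.

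The correlation of Nr3c1 with Sgk1 turned to 0.89 over all 92 libraries and to 0.29 in the 32, and that of Tsc22d3 with Hsd11b1 turned to -0.23 in the 32. The cause of these changes was not tested. Leaving out series or single libraries and the use of Fos and Junb were chosen after seeing the data. Another pseudocount or scaling moved none of these counts by over 1.5 times. No paired analysis was possible because the labels give 1 group and no shared replicate numbers. With 7 libraries in the smallest series, correlations inside a series are imprecise, and Pdk4 rested on few counts in its lowest library.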
